A study of Mus musculus with 7 samples.

Results

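The loci of 9 transcription factor genes that pattern the dorsal telencephalon, Pax6, Emx1, Emx2, Lhx2, Dmrta2, Sp8, Nr2e1, Nr2f1 and Nr2f2, were examined for open chromatin among 21883 protein-coding genes. A locus was the RefSeq gene span (GRCm38.p6) with 50 kb added at each end, and it held whatever peaks the deposited lists placed there. Chromatin was profiled by ATAC-seq, in which a transposase cuts and tags accessible DNA, in neural progenitors from embryos of the outbred CD-1 strain. The titles give E14.5 and the age field gives embryonic day 14. Cells carrying CD15, a surface carbohydrate of neural stem and progenitor cells, were sorted from the dorsal telencephalon. The 3 control libraries were wild-type and the 4 others came from L3mbtl3 -/- embryos, which lack a protein with malignant brain tumour domains that the series title links to Polycomb repressive complex 1. The growth protocol also names heterozygous cells, but no library is labelled so. How the allele was made, and whether a library came from 1 embryo or from a pool, is not given in the sources used here, so p-values measure the spread between libraries, which may in part be technical.

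These factors act in overlapping gradients across the early cortical sheet. Lhx2 selects cortical fate over the cortical hem, Emx2 and Dmrta2 are strongest in its caudomedial part, Pax6 in its rostrolateral part and Sp8 at its rostral end, while the nuclear receptors Nr2f1 and Nr2f2 mark caudal territories. In the radial glia of the ventricular zone several of them also control how long progenitors divide before they make neurons. Several of their genes are known to have distant enhancers, so regulatory DNA may lie well outside the gene.

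The 7 lists differed widely in length. Wild-type libraries 1, 2 and 3 held 7448, 11394 and 6458 peaks, and knockout libraries 1 to 4 held 9827, 7111, 3366 and 17362. The files hold peaks and no read counts, so sequencing depth is unknown and a missing peak does not show that a site was closed. Neither end of L3mbtl3 itself had a peak within 1 kb in any library, so the calls do not check the genotype. In sorted pools of cells, fewer cells with an open site and less opening per cell cannot be told apart.

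Sequences are shown for the promoters on which the data bear: those touched by a peak and, for contrast, those of a paralogue and of the locus with no peak. Each is the RefSeq window (GRCm38.p6) from 250 bases before to 50 after a transcript start, 5′ to 3′ in the direction of the gene. All 9 genes had such a window, 14 in all. A peak touched 2 of the 14 in any library, against 19.9% of 21005 windows of protein-coding genes. By gene this was 2 of 9, against 22.1%.

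The Dmrta2 window (chr4:109977775-109978074, plus strand) lay under peaks of 4 libraries, and capitals mark the 199 bases covered in at least 3 of them.
Dmrta2: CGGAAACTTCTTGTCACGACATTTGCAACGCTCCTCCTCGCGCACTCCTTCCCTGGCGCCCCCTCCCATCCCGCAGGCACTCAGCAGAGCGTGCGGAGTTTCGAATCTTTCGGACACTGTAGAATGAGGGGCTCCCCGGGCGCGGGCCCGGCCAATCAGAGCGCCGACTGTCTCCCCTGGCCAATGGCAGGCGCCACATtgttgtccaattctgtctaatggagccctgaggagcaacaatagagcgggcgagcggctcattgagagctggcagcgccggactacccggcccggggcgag

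The Emx2 window (chr19:59458440-59458739, plus strand) was touched in 1 library, and capitals mark the 85 bases inside that peak. The Emx1 window (chr6:85187681-85187980, plus strand) was touched in none, so it is all in lower case.
Emx2: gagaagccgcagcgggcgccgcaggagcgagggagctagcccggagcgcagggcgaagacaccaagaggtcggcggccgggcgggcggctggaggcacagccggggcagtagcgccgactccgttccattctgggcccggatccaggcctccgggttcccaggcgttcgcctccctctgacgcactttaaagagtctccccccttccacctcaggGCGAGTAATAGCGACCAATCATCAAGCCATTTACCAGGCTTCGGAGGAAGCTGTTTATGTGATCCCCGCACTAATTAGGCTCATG
Emx1: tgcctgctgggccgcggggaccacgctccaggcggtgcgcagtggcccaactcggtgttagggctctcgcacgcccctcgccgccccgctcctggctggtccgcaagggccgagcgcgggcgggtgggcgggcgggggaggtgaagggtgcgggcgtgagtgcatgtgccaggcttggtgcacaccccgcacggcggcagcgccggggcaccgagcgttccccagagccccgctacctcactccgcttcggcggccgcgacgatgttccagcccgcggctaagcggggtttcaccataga

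Upstream of Emx1, a region called in 4 libraries overlapped the window of the long noncoding RNA gene Gm33200 (chr6:85165585-85165884, plus strand). Only the peak of wild-type library 2 reached the start site of Gm33200. Capitals mark the 161 bases of the window covered in at least 3 of the 4.
Gm33200: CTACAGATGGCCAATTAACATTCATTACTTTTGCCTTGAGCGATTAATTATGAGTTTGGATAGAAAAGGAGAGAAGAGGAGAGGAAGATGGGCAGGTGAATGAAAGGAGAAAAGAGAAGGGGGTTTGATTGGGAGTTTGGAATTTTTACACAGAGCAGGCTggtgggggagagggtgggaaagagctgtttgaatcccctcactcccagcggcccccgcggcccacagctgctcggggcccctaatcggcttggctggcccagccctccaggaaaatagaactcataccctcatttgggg

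The upstream of the 2 Nr2f1 windows (chr13:78198824-78199123, minus strand) had no peak on it or within 50 kb of the gene in any library.
Nr2f1: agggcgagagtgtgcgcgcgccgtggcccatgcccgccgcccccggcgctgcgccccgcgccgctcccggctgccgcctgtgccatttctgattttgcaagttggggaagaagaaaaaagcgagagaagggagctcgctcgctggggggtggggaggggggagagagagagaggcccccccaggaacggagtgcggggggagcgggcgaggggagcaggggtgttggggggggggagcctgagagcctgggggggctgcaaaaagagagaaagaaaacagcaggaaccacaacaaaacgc

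In all, 42 peaks lay at the 9 loci, in 8 of the 9, against 69.2% of protein-coding genes with a peak at the locus in any library. Pax6 held the most with 14 peaks, Emx1 held 6, and Emx2, Sp8 and Nr2f2 held 5 each. Dmrta2 held 4, Nr2e1 2, Lhx2 1 and Nr2f1 none. The median over the 9 was 5 peaks summed over the 7 libraries, beside 2 over all protein-coding genes. At least as many as Pax6 were found at 4.41% of all genes, and at 1.83% of genes in the same decile of gene length. At least as many as Lhx2 were found at 69.2%. Pax6, Emx1, Emx2, Dmrta2, Sp8 and Nr2f2 had a peak in at least 4 libraries, which made 6 of 9 against 28.3% of all genes.

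**Figure D1:**
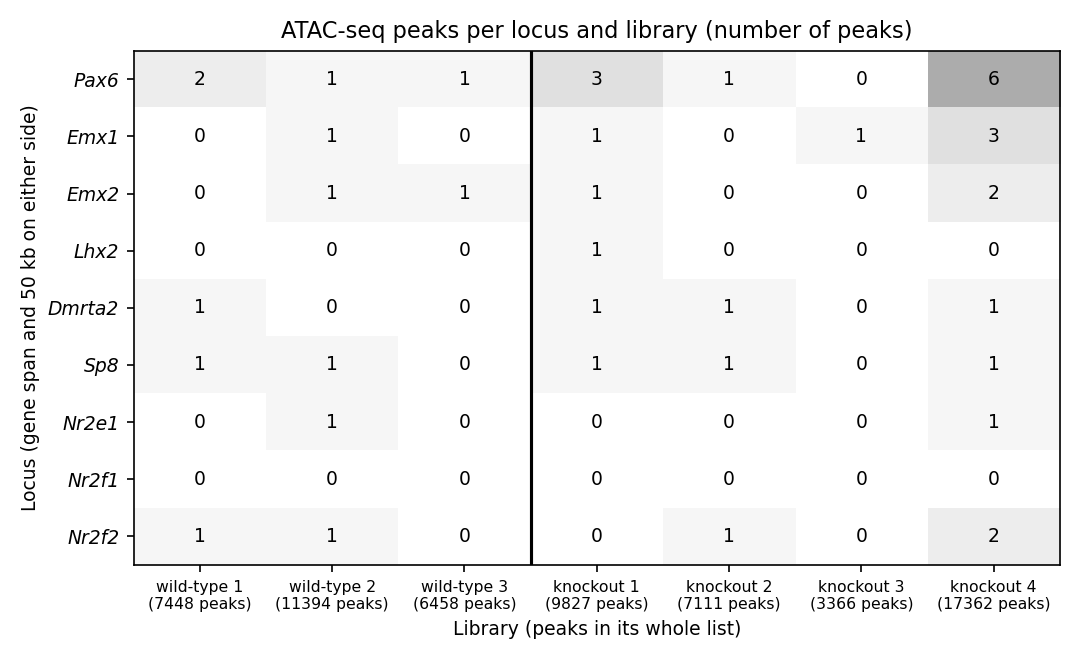
Number of peaks in each locus (rows, the gene with 50 kb added at each end) in each library (columns, with the length of its whole list), darker cells holding more peaks. Pax6 had 6 peaks in knockout library 4 and none in knockout library 3, and Nr2f1 had none in any library.

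The member peaks were of middling to low rank in their own lists. Their fold enrichment over the peak caller's background, the authors' value, ran from 3.46 to 5.70, and 27 of the 42 lay below the median fold of their own list, which ran from 4.35 to 4.81 over the libraries. By −log10 q 31 of the 42 lay below their list's median. None of the 42 reached a deposited −log10 q of 5, which 4.16% to 13.1% of each list did. The highest was 4.80, for a peak inside Pax6 in knockout library 4. The median percentile of −log10 q within the list was 38.9, against 50 by construction for all peaks. Peaks were narrow, with a median width of 166 bp and a range of 87 to 696 bp.

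The peaks merged into 19 regions of shared bases, of which 10 were recurrent, meaning called in at least 2 libraries. Over the whole series 51.6% of 25623 regions were recurrent. The most widely called were 1 inside Pax6 and 1 upstream of Sp8, each in 5 libraries, and none was called in all 7. At least 4 libraries called 5 of the 19, against 25.0% of all regions. Of the 9 regions called in a single library, 7 came from knockout library 4, the longest list, 2 from knockout library 1 and 0 from wild-type libraries. Over the whole series these shares were 52.2%, 10.4% and 30.3%. Of the recurrent regions 4 touched the gene span, 4 lay upstream and 2 lay downstream.

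**Figure D2:**
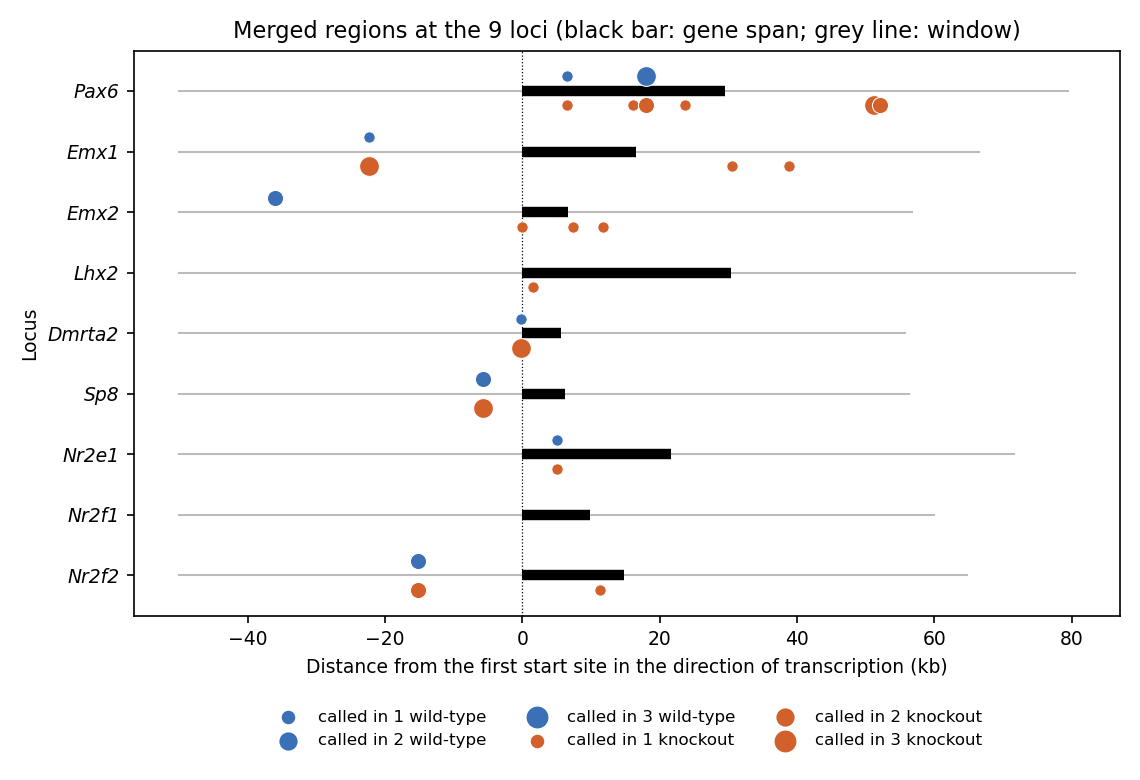
Merged regions plotted by the distance of their midpoint from the gene's first start site in kb, in the direction of transcription, with the gene span as a black bar and the 50 kb window as a grey line. Circles above the line stand for wild-type and below it for knockout libraries, and their area grows with the number of libraries that called the region. The Dmrta2 region ends just before the start site, whereas those of Emx1, Sp8 and Nr2f2 called in 4 or 5 libraries lie 22300, 5676 and 15192 bp upstream.

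Pax6 encodes a paired-box and homeodomain factor of cortical radial glia that promotes neurogenesis. Its locus held 2, 1 and 1 peaks in wild-type libraries 1 to 3 and 3, 1, 0 and 6 in knockout libraries 1 to 4. The groups overlapped, with knockout library 4 highest and knockout library 3 lowest. Wild-type libraries averaged 1.33 ± 0.577 peaks and knockout libraries 2.50 ± 2.65 (SD, n = 3 and 4), which differed by 1.17 (exact permutation p = 0.714, adjusted p = 1). Without knockout library 4 the difference was 0, and without knockout library 3 it was 2.

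Inside Pax6 (chromosome 2, 105668896 to 105698410) the main region lay at 105686825 to 105687037, 4468 bp downstream of the second of its 2 start sites. It was called in all 3 wild-type libraries and in knockout libraries 1 and 4. Fold enrichment was 5.03, 4.70 and 4.91 in wild-type libraries 1 to 3 and 4.35 and 5.70 in the knockout pair, and all 5 peaks shared 95 bases. A second recurrent region, at 105675292 to 105675464 and 6482 bp from the first start, was called in wild-type library 1 and knockout library 4. Knockout library 4 alone added peaks at 105684899 to 105685066 and at 105692506 to 105692784. Neither Pax6 promoter window was touched in any library.

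Beyond the 3′ end of Pax6, 2 neighbouring regions were called in knockout libraries only. They lie within the span of Elp4, which encodes a subunit of the Elongator complex and whose introns are known to carry remote Pax6 enhancers. The first (105719917 to 105720216, 21507 bp past the end of Pax6) was called in knockout libraries 1, 2 and 4 (Fisher's exact p = 0.143, adjusted p = 1 over all regions). Regions with no wild-type and at least 3 knockout calls made up 2.19% of all recurrent regions. That base includes regions called in too few or too many libraries to show the pattern. Its peaks of knockout libraries 1 and 2 did not share a base and were joined only by that of library 4. The second (105720858 to 105721053) was called in knockout libraries 1 and 4 (Fisher's exact p = 0.429, adjusted p = 1), at percentiles 17.8 and 48.6 of their lists. No wild-type call was made in 11.4% of recurrent regions, a base that includes regions called in too many libraries to lack one.

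Emx1 and Emx2 are homeobox paralogues of the cortical primordium. Emx1 marks the pallial lineage and Emx2 shapes its caudomedial areas. At Emx1 (chromosome 6, 85187931 to 85204463) wild-type libraries 1 to 3 held 0, 1 and 0 peaks and knockout libraries 1 to 4 held 1, 0, 1 and 3. The groups overlapped at 0 and 1. Averages of 0.333 ± 0.577 for wild-type and 1.25 ± 1.26 for knockout (SD, n = 3 and 4) differed by 0.917 (exact permutation p = 0.371, adjusted p = 1). Without knockout library 4 the Emx1 difference was 0.333, and with lists of equal length it was 0.25.

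Of these Emx1 peaks 4 fell in the region shown above at Gm33200 (chromosome 6, 85165427 to 85165836). It was called in wild-type library 2 and in knockout libraries 1, 3 and 4, and the 4 peaks shared 113 bases. Fold enrichment was 4.57 in the wild-type library and 4.35, 3.60 and 4.33 in the knockout libraries. This was the only peak that knockout library 3, the shortest list, had at any of the 9 loci. Knockout library 4 alone had 2 further peaks downstream of Emx1, inside Sfxn5, a mitochondrial transporter gene.

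At Emx2 (chromosome 19, 59458690 to 59465357) wild-type libraries 1 to 3 held 0, 1 and 1 peaks and knockout libraries 1 to 4 held 1, 0, 0 and 2. No library stood outside the range of the other genotype except knockout library 4. The means were 0.667 ± 0.577 and 0.750 ± 0.957 (SD, n = 3 and 4, exact permutation p = 1, adjusted p = 1). No region was called in both genotypes, on only 5 peaks, and the knockout peaks did not coincide with each other either. Each knockout region was called in a single library, as were 12396 of all 25623 regions. A region 36068 bp upstream of the start (59422482 to 59422763) was called in wild-type libraries 2 and 3 and no knockout library (Fisher's exact p = 0.143, adjusted p = 1). Knockout calls were absent from 2.93% of recurrent regions, a base that includes regions called in too many libraries to lack one. The wild-type library 3 peak stood at percentile 0.774 of its list, close to the calling limit. Knockout library 1 had the peak on the Emx2 start site (59458655 to 59458790), at percentile 3.71. Knockout library 4 had peaks 680 bp and 4998 bp past the end of the gene.

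Lhx2 encodes the LIM-homeodomain factor that commits the neuroepithelium to cortex. Its locus (chromosome 2, 38339271 to 38369737) held 1 peak, in knockout library 1, at 38340838 to 38340971 and 1623 bp downstream of the first start. That peak stood at percentile 1.54 of its list. The other 6 libraries held 0, and the difference of 0.25 peaks was within the spread (exact permutation p = 1, adjusted p = 1).

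Dmrta2 encodes a DM-domain zinc-finger factor needed for caudomedial cortex and the hem. It was the only member with a promoter window touched in more than 1 library. Wild-type libraries 1 to 3 held 1, 0 and 0 peaks and knockout libraries 1 to 4 held 1, 1, 0 and 1. Both genotypes thus had libraries with and without the peak (Fisher's exact p = 0.486, adjusted p = 1). All 4 peaks fell in 1 region (chromosome 4, 109977584 to 109978017), which ends 8 bp before the start site and also lies within the noncoding gene Dmrta2os. Fold enrichment was 4.59 in wild-type library 1 and 4.77, 3.96 and 4.81 in knockout libraries 1, 2 and 4. The peak of knockout library 2 stood at percentile 4.65 of its list and those of the others between 41.6 and 62.0. The 4 peaks shared 36 bases, at positions 82 to 117 of the window printed above. A promoter peak in at least 4 libraries was found for 6.33% of protein-coding genes.

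Sp8 encodes a zinc-finger factor of the rostral telencephalon. Wild-type libraries 1 to 3 held 1, 1 and 0 peaks and knockout libraries 1 to 4 held 1, 1, 0 and 1. Calls were thus present in both genotypes and absent from the shortest list of each. All 5 peaks formed 1 region 5676 bp upstream of the first start (chromosome 12, 118840306 to 118841001) with no other gene span over it. Fold enrichment was 5.15 and 4.20 in wild-type libraries 1 and 2 and 5.21, 4.49 and 4.27 in knockout libraries 1, 2 and 4. Peak widths ran from 141 bp in wild-type library 1 to 696 bp in knockout library 4, with 99 bases in common (Fisher's exact p = 1, adjusted p = 1).

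Nr2e1, also called Tlx, encodes an orphan nuclear receptor that keeps neural stem cells dividing. Wild-type libraries 1 to 3 held 0, 1 and 0 peaks and knockout libraries 1 to 4 held 0, 0, 0 and 1. These are the longest list of each genotype. Both peaks lay in 1 region inside the gene (chromosome 10, 42578414 to 42578607), 5080 bp downstream of the start, and shared 103 bases (Fisher's exact p = 1, adjusted p = 1).

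The COUP-TF paralogues Nr2f1 and Nr2f2 encode nuclear receptors of caudal cortex and of the caudal ganglionic eminence. At Nr2f2 (chromosome 7, 70351946 to 70366746) wild-type libraries 1 to 3 held 1, 1 and 0 peaks and knockout libraries 1 to 4 held 0, 1, 0 and 2. The groups overlapped at 0 and 1 (exact permutation p = 1, adjusted p = 1). A region 15192 bp upstream of the start (70381783 to 70382093), inside the noncoding gene B130024G19Rik, was called in wild-type libraries 1 and 2 and in knockout libraries 2 and 4. Fold enrichment there was 4.38 and 3.95 in the wild-type and 4.69 and 5.26 in the knockout libraries, and 41 bases were common to the 4 peaks. Knockout library 4 alone had a peak inside the gene, at 70355392 to 70355514.

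Nr2f1 (chromosome 13, 78188971 to 78198873) had no peak in its window in any of the 7 libraries, so no test was made. A region 88466 bp from the gene on its 3′ side, within the span of Fam172a (78100196 to 78100505), was called in all 7. It held the peak nearest to an Nr2f1 start in 6 of the 7 libraries, at 95944 to 96082 bp. The exception was wild-type library 1, with a peak 64824 bp from the start on the 5′ side. Of the 25623 regions of the series, 1296 were called in all 7.

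**Figure D3:**
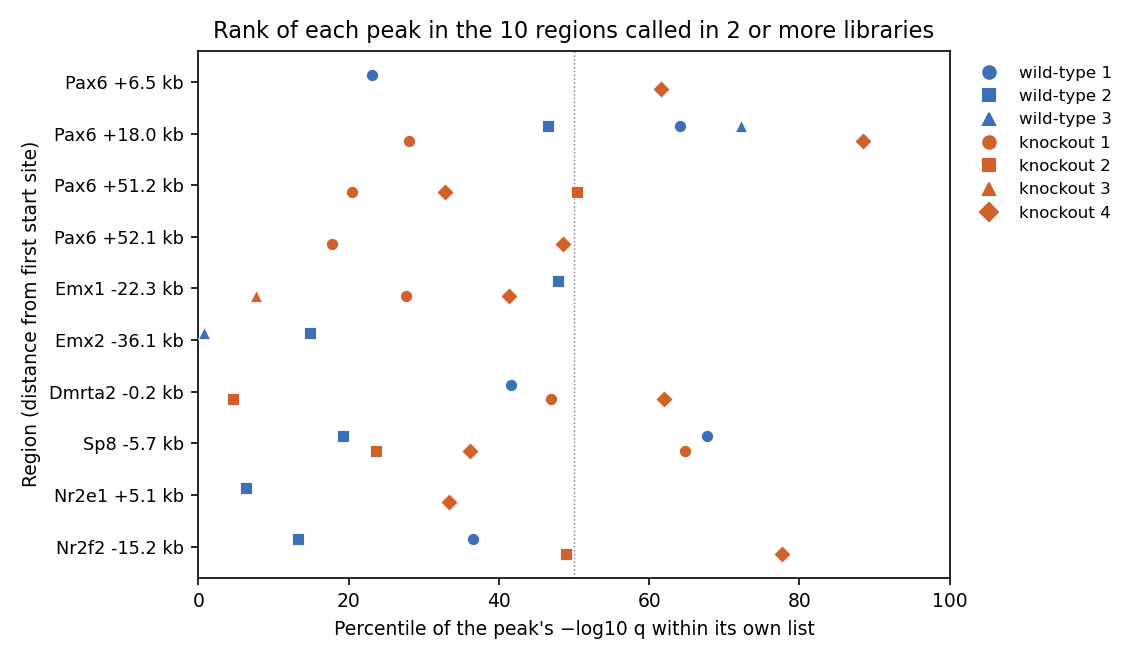
Percentile of each peak's deposited −log10 q within its own list (x axis, 50 marked by the dotted line) for the 10 regions called in at least 2 libraries, named by gene and distance from the first start site. Blue symbols are wild-type and orange symbols knockout libraries. Most peaks lie below 50, and the highest is that of knockout library 4 in the main Pax6 region, at 88.4.

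The distance from a start site to the nearest peak varied widely between libraries. For Pax6 it was 4396, 4441 and 4383 bp in wild-type libraries and 4417, 37610, 772152 and 2436 bp in knockout libraries 1 to 4. For Dmrta2 it was 24, 109814 and 114765 bp in wild-type and 52, 134, 194592 and 8 bp in knockout libraries. Values thus fell either at the promoter or beyond 100 kb, in both genotypes. The median over 7 libraries was 134 bp for Dmrta2, 4417 bp for Pax6, 5681 bp for Sp8 and 15164 bp for Nr2f2. It was 22311 bp for Emx1, 36104 bp for Emx2, 95216 bp for Nr2e1, 96011 bp for Nr2f1 and 142851 bp for Lhx2. The ranges over libraries of neighbours in this order overlapped in every case. Further apart in the order, every Nr2f2 value lay below every Nr2f1 value.

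Comparison of the genotypes over the 9 loci asked whether loss of L3mbtl3 went with more or fewer called sites at patterning genes. Peaks at the 9 loci numbered 5, 6 and 2 in wild-type libraries 1 to 3 and 8, 4, 1 and 16 in knockout libraries 1 to 4. The order followed list length closely, apart from wild-type library 2, whose list was longer than that of knockout library 1. Wild-type libraries averaged 4.33 ± 2.08 and knockout libraries 7.25 ± 6.50 (SD, n = 3 and 4), and the difference of 2.92 was smaller than the knockout spread. It fell to 0 when knockout library 4 was left out. Leaving out knockout library 3 gave 5, and leaving out wild-type library 3 gave 1.75. With each list cut to its 3366 strongest peaks the sign turned, to −0.5, and with peaks counted only for the nearest protein-coding gene it was 1.17. No p is given, since the genes were chosen with results of these data known.

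Per 1000 peaks of each list, the loci held 0.671, 0.527 and 0.310 peaks in wild-type libraries 1 to 3. Knockout libraries 1 to 4 held 0.814, 0.563, 0.297 and 0.922. The 2 highest values and the lowest were all from knockout libraries, so the groups overlapped. The means were 0.503 ± 0.182 and 0.649 ± 0.279 (SD, n = 3 and 4), a difference of 0.146. With single libraries left out it lay between 0.0499 (wild-type library 3 out) and 0.264 (knockout library 3 out). It was 0.231 with wild-type library 1 out, 0.0912 with knockout library 1 out and 0.0554 with knockout library 4 out. With lists of equal length it turned to −0.149, on only 5 peaks at the loci, and with the nearest protein-coding gene only it was 0.00264.

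**Figure D4:**
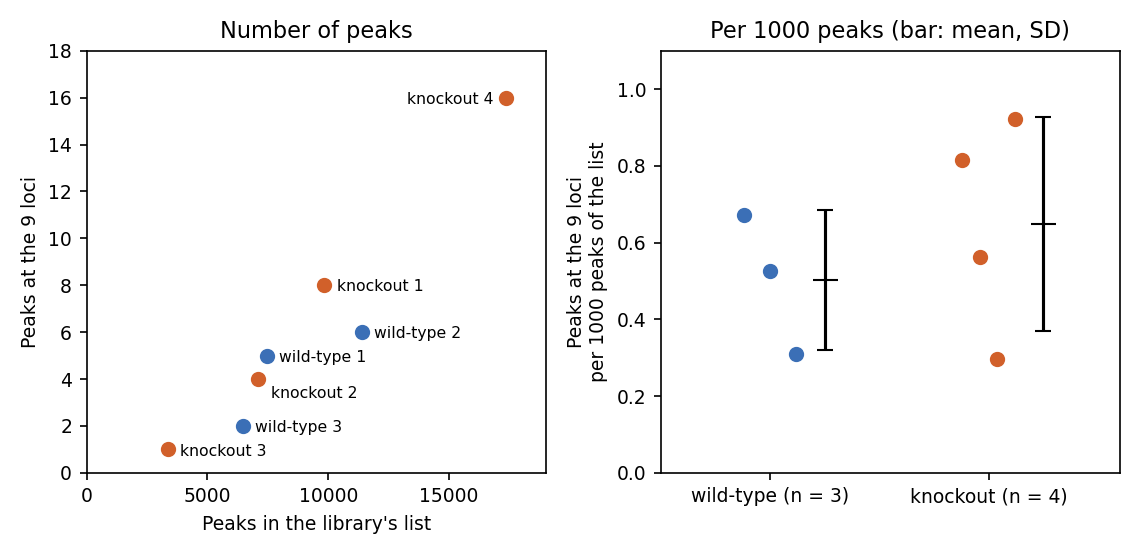
Left, peaks at the 9 loci against the number of peaks in the library's whole list, 1 point per library. Right, the same peaks per 1000 peaks of the list by genotype, with mean and SD beside the points. Knockout library 4 had the longest list and 16 peaks at the loci, and the 3 wild-type values per 1000 peaks lie within the range of the 4 knockout values.

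Locus by locus, 0 of the 8 genes with a peak passed the exact permutation test of peaks per library, and 0 had an unadjusted p under 0.05, also when peaks were taken per 1000 of the list. Over all 15150 genes with a peak at the locus 0 passed after Benjamini-Hochberg adjustment, and 0.330% had an unadjusted p under 0.05, or 0.891% per 1000 peaks. The knockout mean was the higher at 7 of the 8 and the wild-type mean at Nr2e1, beside 58.6% of all such genes with the higher mean in knockout libraries. That tally did not hold under other counts. Per 1000 peaks it was 5 higher in knockout and 3 in wild-type (53.3% of all such genes higher in knockout). Without knockout library 4 it was 3 and 3, with 2 equal, beside 17.9% of the same 15150 genes higher in knockout. That base still counts any gene whose only peaks came from knockout library 4, which can only be equal. All 8 members kept a peak without that library, so their tally cannot be set against the 17.9%. At none of the members did the genotypes separate. Every knockout library was above every wild-type library at 0.132% of the genes tested, and the reverse held at 0.211%. The smallest exact permutation p that 3 against 4 libraries allow is 0.0286. After adjustment such a p passes only if a large part of the 15150 genes reach it, and 0.330% were under 0.05. No gene could thus pass here. Neither 0 passing nor the adjusted p-values given above show that the genotypes were alike.

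Region by region, calls leaned to knockout, by share of libraries, in 5 of the 10 recurrent regions and to wild-type in the other 5. Over all recurrent regions the shares were 40.3% and 49.9%. With 3 against 4 libraries, a region called in fewer than all 7 must lean 1 way. The regions inside Nr2e1, upstream of Nr2f2 and nearest the first Pax6 start leaned to wild-type with equal numbers of libraries calling. The main Pax6 region (3 wild-type and 2 knockout) and that upstream of Emx2 (2 and 0) had more wild-type calls. Sp8 leaned to knockout with 2 of 3 against 3 of 4. The count leaning to knockout was 3 without knockout library 1 and 2 without knockout library 4. The count leaning to wild-type fell to 2 or 3 without any 1 library other than wild-type library 3. Both genotypes called 7 of the 10, against 85.7% of all recurrent regions. By Fisher's exact test 0 of the 19 regions passed after adjustment over all regions and 0 had an unadjusted p under 0.05, beside 0.242% of all 25623 regions. The smallest Fisher's exact p at these loci was 0.143, at the first region beyond Pax6 and at the region upstream of Emx2. Over all regions the smallest Fisher's exact p was 0.0286. With 0.242% of regions under 0.05, that is too large to pass adjustment over 25623 regions. So 0 passing does not show equal calling in the genotypes.

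The promoter windows differed in base composition as well as in calling. Dmrta2 and Emx2, the members with a promoter peak, each had 26 CpG dinucleotides in 300 bases, a count that 22.8% of coding windows reach. Emx1 had 37 and the first windows of Lhx2 and Nr2f1 had 34 and 23, with no peak in any library. Of 7623 coding windows with at least 20 CpG, 31.4% had a peak in at least 1 library. The Gm33200 window, called in 4 libraries, had 6 CpG.

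Letters of 5 short motifs were searched on both strands. CCAAT, the CCAAT box, occurred 3 times in the Dmrta2 window, 99, 70 and 45 bases before the start, the first 2 within the capitals. At least 3 copies were found in 3.89% of coding windows and at least 1 in 38.1%. Emx2 had 1 CCAAT, 21 bases before the start, and 1 TAATTA, a homeodomain core, 36 bases after it, both within its peak. TAATTA was found in 4.52% of coding windows. GGGCGG, the GC box, occurred 4 times in the Emx1 window, the last 2 overlapping, and in 46.6% of coding windows, at least 3 times in 14.9%.

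The Gm33200 window held CAGNTG, the E-box that bHLH factors bind, at 3 positions, 247, 158 and 25 bases before the start, the first 2 within the capitals. At least 3 copies were found in 4.34% of coding windows and at least 1 in 48.7%. It also held 1 TAATTA and 2 CCAAT letters within the capitals, 1 of the CCAAT on the opposite strand. CCAAT and TAATTA overlap no other motif there. AGGTCA, a nuclear receptor half-site, was found in 14.7% of coding windows and in none of the printed ones. These are matches of letters, not bound sites.

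Other genes of telencephalic patterning were taken from lists. Over all protein-coding genes 69.2% had a peak at the locus and 21.3% were called in at least 5 libraries. Of 14 partner factors 12 had a peak, with a median of 6.5 peaks summed over the libraries, and 8 were called in at least 5 libraries. Gli3, the hedgehog pathway repressor that is needed for dorsal identity, held 6, 5 and 4 peaks in wild-type and 3, 4, 4 and 14 in knockout libraries, with no adjustment for gene length. The DM-domain relatives of Dmrta2 were called in all 7 libraries, Dmrt3 with 14 peaks in all and Dmrta1 with 12. Otx1, a homeobox gene, had 9. The forebrain homeobox genes Six3 and Lhx5 had none. Of 10 signalling ligands 8 had a peak, but the median was 1.5 and none was called in at least 5 libraries, while Fgf17 and Bmp7 had none. In the exact permutation test over all genes, adjusted p was 1 for each of the partner factors named with a count above 0. The median difference between knockout and wild-type means was 0.0833 peaks over the 9 members, 0.167 over the partner factors, 0 over the ligands and 0 over all genes.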

How the data were processed

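The members and gene lists were chosen with earlier results of these data known. Broad peaks were called per library by the authors on GRCm38, and the tools named per the submitters' processing notes are MACS2 with no version, Bowtie2 2.3.5.1, SAMtools 1.9, CASAVA 1.9, deepTools 3.3.0 and FastQC 0.11.8. Neither their settings nor a transposase shift is given in the sources used here. Each deposited peak carries a fold enrichment (a ratio over background), a −log10 p and −log10 q, and a score, which was not used, nor was −log10 p. Fold and q rank peaks only within a list. The smallest deposited −log10 q was 1.30. Read counts were not analysed here, so depth is unknown and no counting interval is given.

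Python 3.11.15 with pandas 2.3.3, NumPy 2.4.6 and SciPy 1.17.1 was used. Starts were counted from 1. A peak counted for a locus if it overlapped the window by at least 1 bp. Peaks sharing at least 1 bp were merged into regions. Start sites and strands came from RefSeq promoter windows. Their orientation was checked on 1841 overlapping pairs of opposite strand, all reverse complements. No transcript models were used, so exons and introns are not told apart.

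Peaks per library were compared by a two-sided exact permutation test over the 35 splits, and regions by Fisher's exact test, both with Benjamini-Hochberg adjustment over all genes with a peak or all regions. The permutation test was tried on simulated peaks per locus with large changes and without adjustment. Fisher's test was checked on a single table of calls. Named were all members, neighbours over recurrent regions, regions called in at least 4 libraries or differing by at least 0.67 in share, up to 2 genes of like pattern for a member with at least 7 peaks, and up to 4 genes per list called in at least 5 libraries. Regions called in fewer libraries were added after their values were seen. Replicate numbers occur in both genotypes. Deviations of same-numbered libraries correlated at 0.001, 0.071 and 0.076 over 25623 regions. Those of differently numbered libraries of the 2 genotypes ran from −0.103 to 0.085, so the numbers were not taken as pairs.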

Additional observations from a re-analysis of the deposited data

Results flagged for a closer look

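Among the 4 knockout libraries, a single library lay far from the other 3 in 8 of the 20 sets of values examined at these loci. Chance gives such a gap in about 1 in 20 sets of independent, normally distributed values. Counts and distances at the same loci are not such values, and counts of 0 and 1 reach the gap whenever 1 library differs. So 8 of 20 cannot be set against that rate. Sets of 3 values were left out, so the wild-type libraries were not examined in this way. Knockout library 3, the shortest list, had 0 peaks at Dmrta2 and 0 at Sp8, where the other 3 had 1 each. Its nearest peak lay 772152 bp from a Pax6 start, 194592 bp from that of Dmrta2 and 125915 bp from one of Sp8, against at most 37610, 134 and 5681 bp in the other 3. Knockout library 1 had 1 peak at Lhx2 and knockout library 4 had 1 at Nr2e1, where the others had 0. In knockout library 2 the peak nearest to Emx1 lay 114440 bp away, against at most 22311 bp in the other knockout libraries. Wild-type libraries had distances beyond 100 kb as well. They were 114570 and 132495 bp at Emx1 in libraries 1 and 3, and 109814 and 114765 bp at Dmrta2 in libraries 2 and 3. At Sp8 it was 125955 bp in library 3. At Pax6 none did, with 4383 to 4441 bp. List length moved with the calls of knockout library 3, and its part was not tested.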

How the results depend on the processing

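No member locus and no member region passed its test under any alternative run. With 3 against 4 libraries the smallest exact permutation p is 0.0286. That passes adjustment only where a large part of all genes or regions reach it. With 1 library left out, or both the shortest and the longest list, none could pass even before adjustment. The smallest exact permutation p is then 0.0667 (2 against 4) or 0.1 (3 against 3 or 2). So 0 passing says nothing about stability in any of these runs. At −log10 q of at least 5 no peak remained at the loci, so both differences over the loci were 0 and counts of regions and single loci could not be given. Regions leaning to knockout and to wild-type numbered 2 and 3 with a 10 kb window, 8 and 9 with 100 kb, and 0 and 1 with equal lists. With peaks of the nearest protein-coding gene only, 3 leaned to knockout and 5 to wild-type. Without the shortest and the longest list, chosen after seeing the data, 3 and 3 did. Leaving out single libraries gave 2 to 5 regions in each direction. The difference per 1000 peaks was −0.149 with equal lists, 0.0231 with 10 kb and 0.00264 with the nearest gene only, and that in peaks at the loci was −0.5, 1.58 and 1.17. Single libraries moved the difference in peaks at the loci between 0 and 5 and that per 1000 peaks between 0.0499 and 0.264.

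Signs of small differences at single loci turned. For Pax6 the difference was −0.0833 with 10 kb and with the nearest gene only, and −0.417 with equal lists. For Sp8 it was −0.333 with equal lists, for Lhx2 −0.417 and for Nr2e1 0.0833 with 100 kb. Emx2 and Nr2f2 stood at −0.0266 and −0.0101 per 1000 peaks and both at −0.167 without the shortest and the longest list. Leaving out single libraries moved Emx2 and Nr2f2 each between −0.333 and 0.333, Sp8 between −0.25 and 0.333 and Nr2e1 between −0.333 and 0.25. The cause of these turns was not tested.

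With the replicate block, which pairs libraries 1 to 3 by number and leaves out knockout library 4, 2 and 3 regions leaned to knockout and wild-type. Emx2 and Nr2f2 were then both at −0.333, the difference over the loci was 0 and that per 1000 peaks 0.0554. The block changed no call, and its smallest possible sign-flip p is 0.25. Lists ran from 3366 to 17362 peaks and depth is unknown, so a missing call at these loci does not show a closed site.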

Other observations

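Markers of cells other than dorsal progenitors were also searched for peaks within the same 50 kb windows, although a peak does not measure expression. Of 8 dorsal progenitor genes 7 had a peak in some library and 5 were called in at least 5, among them Fabp7 with 13 peaks, Vim with 12, Sox9 with 1 in every library and Slc1a3 with 16, while Hes1 had none. Of 7 excitatory neuron genes all 7 had a peak, and 2 were called in at least 5 libraries, Fezf2 with 14 peaks and Tbr1 with 1 in every library. Of 11 ventral telencephalon genes 6 had one and 2 were called in at least 5 libraries, Gad2 with 21 peaks and Gsx1 with 8, while Gsx2, Dlx5, Dlx6, Nkx2-1 and Gad1 had none. Summed peaks of the ventral list ran from 3 to 6 in wild-type and from 3 to 8 in knockout libraries. The lists of microglia and blood, endothelium and meninges had peaks at 4 of 5, 4 of 4 and 2 of 4 genes, and none except Dcn, with 10 peaks, was called in at least 5 libraries. Over all protein-coding genes 69.2% had a peak and 21.3% were called in at least 5 libraries.

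Of the 9 members only Pax6 held enough peaks for a search for loci of like pattern. Klf7 and Plppr5 came closest, with a summed absolute difference of 2 peaks over the 7 libraries. Both held 2, 1 and 1 peaks in wild-type and 2, 1, 0 and 5 in knockout libraries, where Pax6 held 2, 1, 1 and 3, 1, 0, 6. A total of 3 genes stood at this distance.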
